A study of Homo sapiens with 8 samples.

Results

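Polypyrimidine tract binding protein (PTB) and yellow fluorescent protein (YFP), each carried on the same Halo tag and each crosslinked with UVC light, were compared by where their RNA was recovered. All peaks of the PTB UVC list (118434) and all peaks of the YFP UVC list (2136) were used, together 120570 of the 266317 peaks in 5 lists. Peaks within 20 nt of each other on one strand were merged, which gave 80531 PTB UVC sites and 1080 YFP UVC sites. Both groups were 293T cells, a human embryonic kidney line, grown with puromycin: one was Halo-PTB transgenic, the other Halo-YFP transgenic, and each had 2 samples. The labels do not state the light dose, the promoter of each transgene or whether a line was a single clone. Halo-PTB cells without UV (2341 sites) and Halo-PTB cells with UVA (70110 sites) came from the same series. An iCLIP list of PTB (52446 sites), to which the labels tie no sample, was deposited with it. That list was re-analysed from published iCLIP samples that are not samples of this series. These lists serve here only as points of reference. Each group is 1 list, so no value below has a spread between replicates and no difference was tested. Intervals are exact 95% binomial intervals unless stated, cover counting error only, and treat sites as independent.

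PTB is an RNA-binding protein that contacts pyrimidine-rich stretches through several RNA recognition motifs, represses many alternative exons, and also acts in RNA 3′ end processing, stability and translation. Crosslinking and immunoprecipitation (CLIP) joins protein to RNA with ultraviolet light and sequences the RNA that comes down with the protein. YFP is a jellyfish protein with no known role in RNA binding, so RNA captured with Halo-YFP shows what comes through the tag, the beads and the crosslinking without PTB. In GoldCLIP, the gel-free form used here, the Halo tag bonds covalently to its beads. All positions are hg19. The gene, RNA class and sequence of the sites were not assigned here, and loci are given by position and strand.

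Most YFP sites lay away from any PTB UVC site, but the strongest did not. Of the 1080 YFP sites, 270 (25.0%, interval 22.4 to 27.7) shared at least 1 nt with a PTB UVC site on the same strand, and 810 did not. From the other side, 280 of 80531 PTB UVC sites (0.348%, interval 0.308 to 0.391) lay on a YFP site. YFP sites were the wider ones (median 87 nt against 49 nt), and with YFP sites cut to their first 50 nt the shares were 22.6% and 0.304%. Against PTB UVC sites wider than 50 nt alone, 16.6% of YFP sites were shared, and 1.33% of those PTB UVC sites lay on a YFP site. Both settings were added with the data in view. At nucleotide level, 16240 of the 99418 nt in YFP sites (16.3%) were covered by PTB UVC sites. No YFP site overlapped a PTB UVC site on the opposite strand, and a count of 0 of 1080 allows a share of up to 0.278%, taken as 3 counts of the total. The overlaps were mostly more than a graze: 255 of the 270 covered over 10 nt and 15 covered 1 to 10 nt, with a median of 52 nt. Just outside the limit, 10 YFP sites lay 1 to 10 nt from a PTB UVC site and 32 lay within 50 nt.

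The share of YFP sites held by the PTB UVC list rose with the deposited score of the YFP site. This score is the authors' own, grows as the peak's p-value falls and was taken to stop at 1000. It ranks sites within a list and does not measure binding between lists. At scores up to 16, 53 of 405 YFP sites (13.1%, interval 9.96 to 16.8) lay on a PTB UVC site, and from 17 to 20 it was 23 of 230 (10.0%, interval 6.45 to 14.6). From 21 to 50 the share was 26.0% (80 of 308, interval 21.2 to 31.3). Between 51 and 100 it was 73.0% (27 of 37, interval 55.9 to 86.2), and from 101 to 500 it was 83.8% (57 of 68, interval 72.9 to 91.6). Above 500 and short of the limit, 13 of 15 were shared, and at the limit all 17 were (interval 80.5 to 100). Put together, 114 of the 137 YFP sites above 50 were shared (83.2%, interval 75.9 to 89.0), and 156 of the 943 at 50 or less (16.5%, interval 14.2 to 19.1). YFP sites with a PTB UVC site had a median score of 34 (quartiles 17 and 163.5), and those without had 17 (quartiles 16 and 23).

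**Figure D1:**
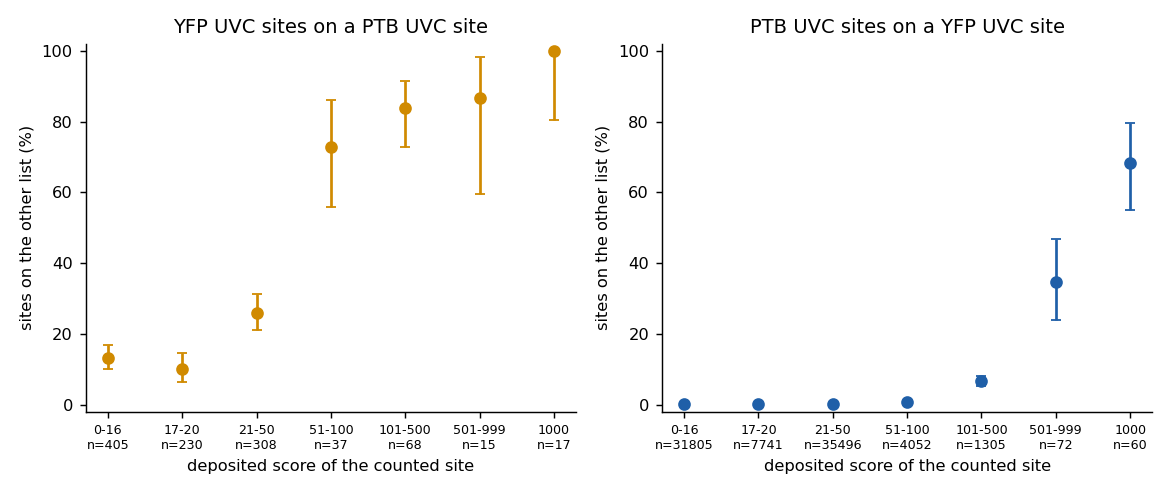
Percent of sites that lay on a site of the other list, by band of the deposited score, for the 1080 YFP UVC sites (left) and the 80531 PTB UVC sites (right). Points are shares and bars exact 95% binomial intervals, with the number of sites under each band. Apart from a dip to 10.0% for YFP at 17 to 20, both shares rise with score, from 13.1% to 100% for YFP and from 0.0849% to 68.3% for PTB UVC.

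On the PTB UVC side the share was low over nearly the whole list and high only at its top. With 1080 YFP sites against 80531 PTB UVC sites, it had to be low over the list as a whole. It was 0.0849% at scores up to 16 (27 of 31805), 0.163% from 21 to 50 (58 of 35496) and 0.790% from 51 to 100 (32 of 4052). From 101 to 500, 86 of 1305 PTB UVC sites (6.59%, interval 5.30 to 8.07) lay on a YFP site, and from 501 to 999 it was 25 of 72 (34.7%, interval 23.9 to 46.9). At the limit 41 of 60 did (68.3%, interval 55.0 to 79.7). Among the 132 PTB UVC sites above 500, 66 lay on a YFP site and 66 did not.

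At the top of the YFP list, 17 sites tied at 1000, and all 17 lay on a PTB UVC site, 16 on a UVA site, 13 on a site without UV and 7 on an iCLIP site. The rule for named sites took the 10 widest of them, from 134 to 189 nt, so their width is set by the rule. All 10 of these lay on a site without UV, as 3 of the other 7 did. The widest, chr17:75085388-75085576 on the plus strand, was met by PTB UVC at a score of 170, by no UV at 57 and by UVA at 79. In the PTB UVC list 1.78% of sites scored above 100. On the minus strand of chromosome 14, chr14:20811229-20811400 scored 476 with PTB UVC, 1000 with UVA, 13 without UV and 29 in iCLIP. A second locus there, chr14:20791337-20791488, scored 1000 with PTB UVC, 692 with UVA and 62 without UV, and its nearest iCLIP site was 801 nt away. Each of these 3 loci was in the YFP list, in PTB UVC and in the list without crosslinking.

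A pair of neighbouring plus-strand loci on chromosome 1, chr1:28833923-28834083 and chr1:28835115-28835274, scored 1000 with PTB UVC and with UVA and 403 and 303 without UV. In the YFP list they were merged from 14 and 23 peaks. The minus-strand locus chr11:62609120-62609282 scored 1000 in YFP, PTB UVC, UVA and iCLIP and 277 without UV. Of the 10, it alone reached the limit in iCLIP, where the others scored 51 or less or had no site. The plus-strand locus chr5:138611867-138612012 scored 1000 with PTB UVC and 52 without UV, and its nearest UVA and iCLIP sites were 7158 and 7140 nt away. The plus-strand locus chr17:19091365-19091508 scored 1000 with PTB UVC and UVA, 185 without UV and 49 in iCLIP. The locus chr3:186504464-186504603 (plus) scored 932 with PTB UVC, 74 with UVA, 74 without UV and 42 in iCLIP. The locus chr16:2012335-2012468 (minus) scored 1000 with PTB UVC, 684 with UVA, 27 without UV and 15 in iCLIP.

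A small core of YFP sites was held by every list. In all, 26 of the 1080 YFP sites (2.41%, interval 1.58 to 3.51) lay on sites of PTB UVC, PTB without UV, PTB UVA and iCLIP together. Of the 10 with the highest scores, 6 have been given above, namely those on chromosomes 14 (the first), 11, 1 (the first), 17 (the second), 3 and 16. The others were chr3:186505091-186505222 (plus, YFP score 1000, PTB UVC 1000), chr22:43011276-43011399 (plus, YFP 838, PTB UVC 1000), chr9:35657875-35657959 (minus, YFP 615, PTB UVC 1000) and chr5:111497179-111497274 (plus, YFP 590, PTB UVC 143). Their iCLIP scores were 39, 211, 271 and 66.

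The other lists held the shared and the unshared YFP sites to very different degrees. PTB without UV held 67 of the 1080 YFP sites (6.20%), UVA 231 (21.4%) and iCLIP 107 (9.91%). Of the 270 YFP sites on a PTB UVC site, 63 (23.3%, interval 18.4 to 28.8) also lay on a site without UV, 160 (59.3%, interval 53.1 to 65.2) on a UVA site and 72 (26.7%, interval 21.5 to 32.4) on an iCLIP site. For the 810 YFP sites without a PTB UVC site the counts were 4 (0.494%), 71 (8.77%, interval 6.91 to 10.9) and 35 (4.32%, interval 3.03 to 5.96). So 63 of the 67 YFP sites found without UV were also PTB UVC sites. Another 112 of the 270 shared sites (41.5%) were at UVA or iCLIP sites but at none without UV, and 95 (35.2%) were in no further list. Because the shared YFP sites score higher, these shares and the score move together, and the part played by score was not tested.

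The YFP sites that no other list held made up most of the list. They numbered 728 (67.4%, interval 64.5 to 70.2), and all lay among the 810 without PTB UVC. Of those 810, 13 scored above 100. The highest was chr5:130497010-130497150 on the minus strand, 141 nt wide with a score of 525 and its nearest PTB UVC site 546 nt away. The next, chr6:52860434-52860516 on the plus strand, scored 512, was a single peak of 83 nt and lay 131 to 149 nt from a site of each of the 4 other lists. A site of every other list thus lay close beside it without touching it.

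Others of the 10 named YFP sites without PTB UVC lay far from every other list. The plus-strand site chr7:93280154-93280237 (score 194) lay 311221 nt from the nearest PTB UVC site and farther from every other list. The minus-strand site chr20:31055289-31055396 (score 245) lay 58380 nt from PTB UVC and 14046 nt from UVA, its nearest of the other lists. The plus-strand site chr10:53093820-53093946 (score 153) lay 28444 nt from PTB UVC and 13747 nt from UVA. Nearer to PTB UVC were chr14:23790891-23790968 (plus, score 307, 2587 nt), chr3:195805406-195805500 (minus, 251, 4510 nt) and chr1:223900312-223900409 (plus, 180, 1301 nt). Last, chr6:168227748-168227846 (plus, score 231) lay 14 nt and chr3:169482560-169482657 (minus, score 155) 17 nt from a PTB UVC site, so these 2 missed the overlap narrowly.

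Most YFP sites had a PTB UVC site in their neighbourhood, as most sites of the other lists did. Within 1000 nt of a PTB UVC site were 49.7% of YFP sites (537, interval 46.7 to 52.7), 46.0% of no-UV sites, 45.5% of UVA sites and 41.4% of iCLIP sites. Within 10 kb the shares were 80.4%, 80.8%, 77.5% and 81.8%. Direct overlap was 25.0% for YFP, 17.7% for no UV, 12.6% for UVA and 9.43% for iCLIP, and sites differ in width between these lists. Of the 810 YFP sites without a PTB UVC site, 598 (73.8%, interval 70.7 to 76.8) had one within 10 kb on the same strand. Over all 810 the median distance was 2232 nt. YFP sites were scattered among themselves: 8.43% had another YFP site within 1000 nt, against 38.2% of PTB UVC sites with another of their list, in lists whose lengths differ 74.6-fold.

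Counted in strand-specific windows of 100 kb, YFP RNA came from few places more than once. YFP sites fell in 928 windows, of which 834 held a single one, 75 held 2 and 19 held 3 or more. PTB UVC sites fell in 14661 windows, of which 94.2% had no YFP site. With only 928 YFP windows, a share close to this was set by the lengths of the lists. Of the 928 YFP windows, 852 (91.8%) also held a PTB UVC site, and 76 windows with 87 YFP sites did not. The number of YFP sites per 100 PTB UVC sites was 1.34 over both lists and 1.40 in the 353 windows with at least 20 PTB UVC sites. It was 1.71 in windows with 1 to 4 PTB UVC sites, 1.03 with 5 to 9 and 1.08 with 10 to 19. Of the 121 YFP sites in the windows with at least 20, 31 lay in 1 minus-strand window, chrX:73000001-73100000, beside 46 PTB UVC sites. The value over both lists also counts the 87 YFP sites in windows without a PTB UVC site. These densities were compared without a test.

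Most windows dense in PTB UVC sites had no YFP site, but a lower share of them than of all windows. Of the 353 with at least 20 PTB UVC sites, 285 had none (80.7%), against 94.2% of all PTB UVC windows. The latter share was largely set by the short YFP list. The densest was the minus-strand window chr6:97600001-97700000, with 52 PTB UVC, 28 UVA and 21 iCLIP sites, 1 site without UV and no YFP site. The plus-strand window chr1:16200001-16300000 had 46 PTB UVC, 10 UVA and 6 iCLIP sites, 1 without UV and no YFP site. The minus-strand window chr2:61700001-61800000 had 42 PTB UVC, 24 UVA and 13 iCLIP sites, 1 without UV and no YFP site. Next by density among windows without YFP, and outside the rule for named windows, the plus-strand window chrX:47000001-47100000 had 42 PTB UVC, 45 UVA and 30 iCLIP sites, and the minus-strand window chrX:53400001-53500000 had 40, 28 and 19. Neither had a YFP site or a site without UV.

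Over all 80251 PTB UVC sites without a YFP site, 11.1% lay on a UVA site, 6.18% on an iCLIP site and 0.437% on a site without UV, and the strongest were held more often. Of the 66 above a score of 500, 59 lay on a UVA site, 24 on an iCLIP site, 26 on a site without UV and 3 in no further list. For the 66 above 500 with a YFP site the counts were 52, 26, 44 and 6. So 26 of the 66 strong sites off the YFP list were in the list without crosslinking.

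At the limit, 19 PTB UVC sites had no YFP site, of which 16 lay on a UVA site, 9 on an iCLIP site and 11 on a site without UV. The 10 named by rule were the widest of these 19, and all 10 lay on a UVA site. The widest, chrX:107964682-107964893 (minus, 212 nt), scored 1000 in UVA and in iCLIP and its nearest site without UV was 589 nt away. The plus-strand site chr17:37360869-37360972 scored 828 in UVA, with the nearest iCLIP site 4095 nt and the nearest YFP site 925762 nt away. The plus-strand site chr11:65200952-65201058 scored 759 in UVA and 472 in iCLIP, with the nearest YFP site 1213 nt and the nearest no-UV site 3892 nt away. These 3 lay on neither a YFP site nor a site without UV.

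The other 7 had a site without UV as well. They were chrX:73064661-73064823 (minus, no-UV score 19), chr19:12841462-12841605 (minus, 33), chr12:49521567-49521683 (minus, 28), chr12:50850446-50850547 (plus, 48), chr14:103986006-103986082 (minus, 14), chr6:13214287-13214361 (plus, 31) and chr12:54678582-54678655 (plus, 30). Of these, chr12:50850446-50850547 scored 1000 and chr19:12841462-12841605 scored 583 in iCLIP. The nearest YFP site was 142 nt from the first of the 7, on chromosome X, and 459 nt from the one on chromosome 14. It was over 100 kb from each of the other 5.

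Within bands of the PTB UVC score, the share held by UVA was higher in sites on YFP sites up to 500. It was lower from 501 to 999 and about the same at the limit. At scores up to 16, UVA held 8 of the 27 sites with a YFP site (29.6%, interval 13.8 to 50.2) and 6.61% of the 31778 without (interval 6.34 to 6.89). From 21 to 50 it held 19 of 58 (32.8%, interval 21.0 to 46.3) and 11.4% (interval 11.1 to 11.8). From 17 to 20 it held 2 of 11 and 9.70%. From 101 to 500 the shares were 61.6% (53 of 86, interval 50.5 to 71.9) and 57.2% (interval 54.3 to 60.0). From 501 to 999 the order was the other way, with 72.0% (18 of 25, interval 50.6 to 87.9) and 91.5% (43 of 47, interval 79.6 to 97.6), and the intervals overlapped. At the limit UVA held 34 of 41 (82.9%) and 16 of 19 (84.2%). iCLIP held 18.5% (5 of 27) and 3.93% at scores up to 16, and 25.6% and 27.6% from 101 to 500. The list without UV held 24.4% (21 of 86, interval 15.8 to 34.9) and 7.63% (interval 6.20 to 9.26) from 101 to 500. It held 7 of 25 and 15 of 47 from 501 to 999, and 37 of 41 and 11 of 19 at the limit.

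The densest YFP locus was a 30.5 kb stretch of the minus strand of chromosome X, chrX:73042076-73072527. It held 31 YFP sites (2.87% of the list and 48.4% of the YFP sites of that chromosome), 45 PTB UVC sites (0.0559% of their list), 32 sites without UV (1.37%), 61 UVA sites (0.0870%) and 6 iCLIP sites (0.0114%). Within the YFP list the 31 sites scored 14 to 95 with a median of 27. Within the PTB UVC list the 45 sites scored 113 to 1000 with a median of 283. Of the YFP sites, 15 lay on a PTB UVC site, 15 on a UVA site, 9 on a site without UV and 5 on an iCLIP site, and 13 were in none. Over the whole YFP list these shares were 25.0%, 21.4%, 6.20% and 9.91%, and 67.4% were in none. There was no PTB UVC site on the plus strand of the stretch. The stretch was delimited by its YFP sites after these had been seen.

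**Figure D2:**
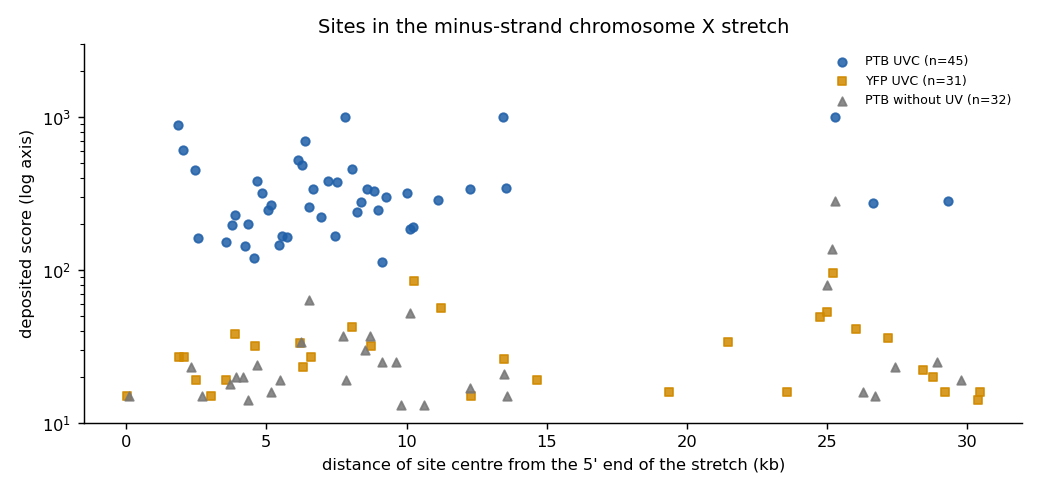
Deposited score (log axis) of each site in the minus-strand stretch chrX:73042076-73072527 against the distance of its centre from the 5′ end of the stretch in kb, for PTB UVC (45 sites), YFP UVC (31) and PTB without UV (32). PTB UVC sites score 113 or more and gather toward the 5′ end, and YFP sites, at 95 or less, run along the whole stretch.

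The sites of the 2 lists were laid out differently along this stretch. When it was cut into 3 equal parts, the part nearest the 5′ end held 37 of 45 PTB UVC sites and 13 of 31 YFP sites, and 11 of these 13 lay on a PTB UVC site. The middle part held 5 PTB UVC and 6 YFP sites, of which 3 were shared. The part nearest the 3′ end held 3 PTB UVC and 12 YFP sites, of which 1 was shared. UVA sites numbered 37, 17 and 7 over the same parts, and sites without UV 20, 4 and 8. The parts were chosen after the positions had been seen.

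The share of chromosome X in the YFP list turned on this stretch. Chromosome X held 5.93% of YFP sites (64) and 3.14% of PTB UVC sites (2527), a ratio of PTB UVC to YFP share of 0.530 (normal 95% interval 0.416 to 0.674). Without the stretch the shares were 3.15% (33) and 3.08% (2482), and the ratio was 0.980 (interval 0.699 to 1.37). Chromosome 4 was at 1.46 (interval 1.05 to 2.04, 34 YFP sites), and the interval of every other autosome held 1 when sites were counted. By sites, chromosome 20 was at 0.754 (interval 0.537 to 1.06) and chromosome 18 at 0.744 (interval 0.538 to 1.03). Chromosome 20 was at 0.712 by peaks and 0.663 by nucleotides, and chromosome 18 at 0.912 by nucleotides. Peaks or nucleotides of 1 site are not independent, so no interval is read from these counts. Beside chromosome X, only chromosomes 4, 18 and 20 were counted in these ways. These intervals were not adjusted for the number of chromosomes examined.

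**Figure D3:**
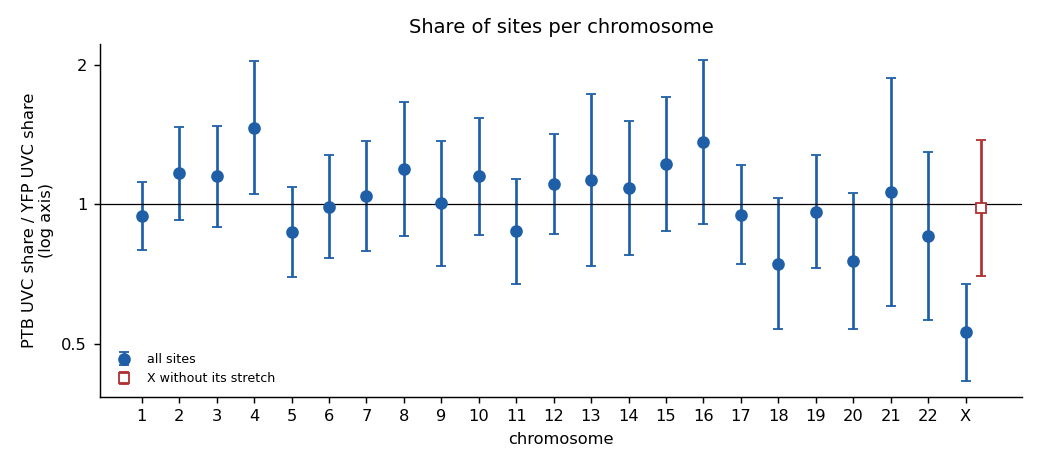
Share of PTB UVC sites on each chromosome divided by the share of YFP UVC sites (log axis), with normal 95% intervals on the log scale. Chromosome X lies at 0.530 with all sites and at 0.980, as the open square, without its 30.5 kb stretch.

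The next densest YFP window, chr11:65200001-65300000 on the plus strand, was also dense with PTB. It held 9 YFP sites, 44 PTB UVC, 48 UVA, 40 iCLIP and 7 no-UV sites. Of the 9 YFP sites, 4 met a PTB UVC site, where the whole YFP list had 25.0%, and 7 lay on a UVA or an iCLIP site. Over the whole YFP list, a UVA or an iCLIP site held 166 of the 270 sites with a PTB UVC site and 81 of the 810 without. The strongest of the 9, chr11:65273428-65273571, scored 330 with YFP, and its PTB UVC site 56, its UVA site 203 and its iCLIP site 97. The site chr11:65272374-65272459 scored 50 with YFP, 222 with PTB UVC, 1000 with UVA and 80 with iCLIP. The remaining YFP sites of the window scored 15 to 29.

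One region held many YFP sites and no PTB UVC site at all. On the minus strand of chromosome 18, chr18:36933238-37379219 (446 kb) contained 12 YFP sites with scores of 15 to 21, and PTB UVC, UVA and iCLIP had no site there on either strand. PTB without UV had 1 site. The nearest PTB UVC sites on that strand were 1750 to 2014 kb from the YFP sites. The sites were narrow, from 6 to 96 nt, and several lay in pairs such as chr18:37027512-37027521 and chr18:37027557-37027597. With peaks merged within 50 nt the 12 became 7. They made up 12 of the 36 YFP sites of chromosome 18. The region was picked after its sites had been seen. All of its sites scored 50 or less, as did 943 of the 1080 YFP sites. The median score over the whole YFP list was 17.

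**Figure D4:**
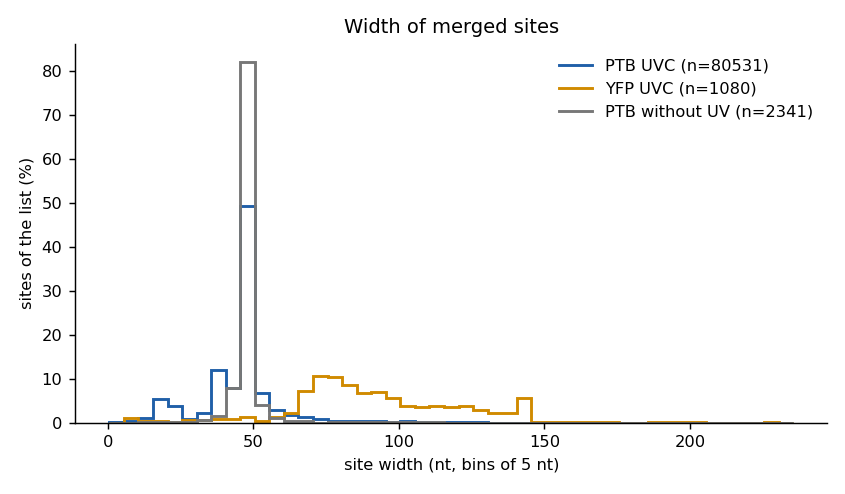
Width of merged sites in nt, in bins of 5 nt, as a percent of the sites of each list, for PTB UVC (80531 sites), YFP UVC (1080) and PTB without UV (2341). PTB UVC and PTB without UV peak in the bin of 46 to 50 nt, at 49.2% and 82.0% of sites, and YFP sites spread from about 65 to 145 nt.

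The lists differed in the shape of their sites, beside which the overlaps above should be read. The median width was 49 nt in PTB UVC (quartiles 39 and 50) and 87 nt in YFP (quartiles 74 and 112). Widths of 48 to 50 nt made up 42.5% of PTB UVC and 74.9% of no-UV sites but 0.648% (7) of YFP sites, 3.72% of UVA and 3.62% of iCLIP sites. Sites wider than 50 nt were 17.0% of PTB UVC, 7.26% of no UV and 93.7% of YFP. The commonest single width was 50 nt in PTB UVC (23049 sites) and in no UV (1281) and 142 nt in YFP (55). The labels name 2 sequencing platforms without saying which library ran on which, and the part of read length in these widths was not tested. Strand and peak splitting differed too: 61.5% of PTB UVC peaks but 51.9% of PTB UVC sites were on the plus strand, since plus-strand sites held 1.74 peaks each and minus-strand sites 1.18. For YFP 55.5% of peaks and 50.4% of sites were on the plus strand.

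Where the 2 lists met, the 5′ ends of their sites lay closer together than the 3′ ends, though most 5′ ends were more than 5 nt apart. Among 251 pairs in which 1 YFP site met 1 PTB UVC site, the median difference of the 5′ ends was 0 nt (quartiles -11 and 13) and that of the 3′ ends was -29 nt (quartiles -40 and -9.5), a negative value meaning that the PTB UVC end lay upstream. The 5′ ends were within 5 nt in 94 pairs (37.5%) and the 3′ ends in 15 (5.98%), and the PTB UVC site ended first in 199 (79.3%). In the 69 pairs with both scores above 100, the 5′ ends were within 5 nt in 43 (62.3%), the 3′ ends in 2, and the PTB UVC site ended first in 66. In CLIP libraries of the iCLIP type, the 5′ end of a read marks where reverse transcription stopped, often next to the crosslink. Whether these sites start at such stops was not tested.

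**Figure D5:**
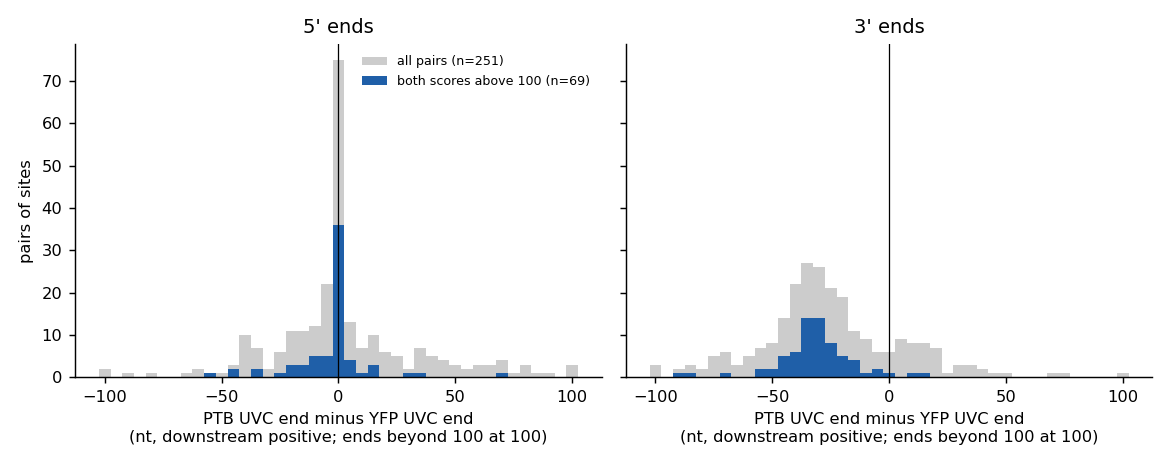
Distance in nt from the YFP UVC end to the PTB UVC end of overlapping sites, for 5′ ends (left) and 3′ ends (right), positive downstream. Grey bars are all 251 one-to-one pairs and blue bars the 69 with both scores above 100. The 5′ ends pile up at 0 and the 3′ ends centre near -30, with medians of 0 and -29.

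The deposited scores of the pairs rose together only loosely. Over the 251 one-to-one pairs Spearman's rho was 0.601, a description across sites of 2 lists that share cells, tag and light. In 11 of the 270 shared YFP sites both scores were at the limit. In 8 YFP sites scoring above 100, out of 87 with a PTB UVC site, that site scored 50 or less. The strongest of these in the YFP list were chr11:93468294-93468405 (minus), at 1000 with YFP and 37 with PTB UVC, and chr5:180668816-180668891 (minus), at 1000 and 32. The scores of the 2 lists share no scale. Both PTB UVC scores lay above 29, the upper quartile of PTB UVC sites without a YFP site. At the other extreme, of the 76 YFP sites that scored 20 or less and had a PTB UVC site, 15 had one above 100. Of these, chr3:160232692-160232787 and chr3:160232828-160232969 (minus) scored 15 each with YFP and met 1 PTB UVC site of 177 nt at 1000. The site chr1:26227148-26227230 (minus) scored 16 with YFP and 572 with PTB UVC. These examples were chosen after their scores had been seen.

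PTB UVC sites over 75 nt were held by the other lists more often than those of 48 to 50 nt, but width and share did not rise together throughout. Of the 2801 PTB UVC sites over 75 nt, 114 lay on a YFP site (4.07%, interval 3.37 to 4.87), 52.6% on a UVA site and 25.7% on an iCLIP site. Of the 34248 sites of 48 to 50 nt, 42 lay on a YFP site (0.123%, interval 0.0884 to 0.166), 7.18% on a UVA site and 4.76% on an iCLIP site. The narrowest sites, below 20 nt (2394), were held by YFP at 0.209% (5), by UVA at 9.73% and by iCLIP at 4.80%. Wide sites also scored higher: 56.3% of those over 75 nt were above 50, against 2.84% of those of 48 to 50 nt. Overlap needed only 1 nt, so a wide site has more length on which to meet another list. The parts of width and score in these shares were not tested. Sites of exactly 39 nt numbered 5912, with 0.609% above a score of 50 and 79.8% on the plus strand. YFP held 6 of them (0.101%), UVA 2.96% and iCLIP 2.42%. The list held 5419 peak pairs of 4 and 19 nt set 16 nt apart, which add up to 39 nt, with 4466 on the plus strand. Sites of exactly 20 nt (3226) had 0.155% above 50, and UVA held 2.05% of them.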

How the data were processed

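RNA bound to Halo-tagged PTB or YFP in 293T cells was crosslinked with UVC, captured on Halo beads and turned into iCLIP libraries, per the labels' protocols. The submitters' processing notes name Bowtie 1.1.2 and the genome builds hg19 and dm3 without their roles; positions were read as hg19. The peak caller, its filters and how 2 samples became 1 list: not given in the sources used here. Depth per sample is unknown. The deposited score and p-value of each peak are the authors', and the p-values, at most 0.05, were used only to place peaks listed with a score and p-value of 0 (148 PTB UVC, 39 YFP) at the score limit of 1000. Positions, counted from 0 as deposited, were written 1-based.

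Peaks within 20 nt on a strand were merged, a site keeping its highest score. In PTB UVC 8407 gaps of 11 to 20 nt were bridged and 515 of 21 to 30 nt were not, in YFP 3 and 7. Overlap was at least 1 nt on the same strand. Overlap counts were checked against bedtools 2.31.1 (20 of 20 pairs of lists) and tested on simulated data. Scripts ran in Python 3.11.15 with pandas 2.3.3, intervals came from scipy 1.17.1, quantiles from numpy 2.4.6 and plots from matplotlib 3.10.9. Named sites were the 10 with the highest score in each of 4 sets (ties by width, then position) and the 5 densest windows of each list. Alternatives changed the merging distance, the overlap rule, strand, a score threshold, the chromosomes and the unit counted. Members, rules and alternatives were chosen with earlier results of these data known. Annotation and motif counts, planned for a genome of hg19, were not run.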

Additional observations from a re-analysis of the deposited data

How the results depend on the processing

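No paired analysis was possible because each group has 1 list and no replicate can be told apart or left out. Of 45 alternatives, 25 stayed within the 95% interval of the reported value. The share of PTB UVC sites on a YFP site (0.348%) was 0.292% with at least 50% of the site covered, 0.414% with sites within 50 nt, 0.463% at or above the median score and 4.95% at scores of at least 100 (1455 and 101 sites left). With choices added after the data had been seen it was 0.304% with YFP sites cut to their first 50 nt and 1.33% over PTB UVC sites wider than 50 nt. The share of YFP sites on a PTB UVC site (25.0%) was 16.3%, 27.96%, 29.0% and 69.3% under the first 4 of these, 22.6% with YFP sites cut and 16.6% against PTB UVC sites wider than 50 nt. The ratio of PTB UVC to YFP sites (74.6) was 81.8 with only touching peaks merged, 64.4 at or above the median score and 14.4 at scores of at least 100. The share of YFP sites found without UV (6.20%) was 7.92% at scores of at least 100. PTB UVC sites within 1000 nt of another (38.2%) were 50.1% with only touching peaks merged, 36.1% with peaks merged within 50 nt, 27.9% at or above the median score and 17.6% at scores of at least 100. The chromosome X ratio (0.530) was 0.980 without the stretch, an alternative also added later. The cause of these changes was not tested. Scores of different lists are not on a shared scale, so 1 threshold need not cut both alike. The lists give no read numbers, so depth limits every count of sites and every absence in the short YFP list.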

Other observations

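Most YFP windows with 3 or more sites also held a PTB UVC site, as did 852 of all 928 YFP windows (91.8%). Presence of PTB UVC therefore does not set these windows apart. On the minus strand, chr11:62600001-62700000 held 5 YFP sites beside 8 PTB UVC, 13 UVA and 8 iCLIP sites, and chr11:93400001-93500000 held 4 beside 10, 15 and 5. The minus-strand window chr20:37000001-37100000 held 4 YFP and 5 PTB UVC sites. On the plus strand, chr17:7400001-7500000 held 3 YFP sites among 34 PTB UVC sites and chr5:138600001-138700000 held 3 among 26. Of the 19 such windows, those at chr18:37200001-37300000 and chr18:37300001-37400000 were the only ones without a PTB UVC site, and both lie in the chromosome 18 region described above.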
